A study of Rattus norvegicus with 69 samples.

Results

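Ccna1, Ccnb1, Ccnb2, Ccnd2, Cdk1, Cdc20 and Pttg1, the cyclins, the mitotic kinase and the anaphase regulators described here, were measured by 13 probe sets of 31042 on the array, or 7 genes of 14217. The members are all probe sets that the platform annotation gives to these symbols, and probe sets of 1 gene are kept apart. They are numbered within a gene by their mean signal over all samples. Ccna1 has probe sets 1393598_at (1) and 1382827_at (2), and Ccnb1 has 1370345_at (1) and 1370346_at (2). Ccnb2 has 1389566_at, Ccnd2 1370810_at, Cdk1 1367776_at and Pttg1 1367780_at. Cdc20 has 1387895_s_at (1), 1370294_a_at (2), 1389506_x_at (3), 1374360_at (4) and 1394113_at (5). In the array maker's naming, s and x mark probe sets with probes that other transcripts may also bind, and a marks one that covers several transcripts of 1 gene, so the signals of Cdc20 probe sets 1 and 3 are uncertain in that respect.

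Entry into cell division is driven by Cdk1, a kinase that is active only when bound to an A-type or B-type cyclin. Cdc20 then activates the anaphase-promoting complex, a ubiquitin ligase that marks B-type cyclins and securin (the product of Pttg1) for destruction, and loss of securin frees separase to cut the cohesin that holds chromatids together. In the male germ line Ccna1 is the A-type cyclin of spermatocytes and is needed to leave meiotic prophase, Ccnd2 is a D-type cyclin of early cell cycle phases in spermatogonia, and in the rat the meiotic divisions take place at the end of the cycle of the seminiferous epithelium, so that new round spermatids appear at its first stage.

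RNA of 69 samples from Sprague Dawley rats, with no treatment named, was measured on Affymetrix arrays, 1 per sample. Tubules had been dissected under transillumination into 10 stage groups, each of 5 samples, or 4 for stage IV-V (replicates 2 to 5), from rats aged 55 to 60 days; a sample pooled 2 rats with 25 segments from each. Isolated cells were Sertoli cells (4 samples, about 85% pure), pachytene spermatocytes (4) and round spermatids (4) from rats of the same age. The earliest germ cells, labelled spermatogonia plus early spermatocytes (3 samples), came from younger animals of 18 to 20 days. The germ cells were 85% to 95% pure per the labels, and whole testis gave 5 samples, with no age in the labels. The group called IX-XI after its titles has the source name IX-XII. Only the pooled tubule samples are described as independent, so elsewhere p-values measure the spread between these samples, which may be technical. Levels are MAS5 signals on a linear scale, given for each sample or as mean ± SD over the samples of a group (n as just given), and a level is compared only within a probe set.

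The promoters of many genes of mitosis carry CCAAT boxes and a cell cycle homology region (TTTGAA, or the related TTTAAA), and those of the members are shown for that reason. Whether these motifs bear on the stage profiles was not tested. The sequences come from RefSeq promoter windows of the assembly GRCr8, here the 250 bases before the start; bases that lie within the RefSeq gene span were left out. Capitals mark matches to these 3 motifs on either strand, so a CCAAT box of the opposite strand is shown by the capitals ATTGG. Ccnb1 is on the minus strand at chr2:33655226-33655475, Ccnb2 on the minus strand at chr8:79981718-79981908, Cdk1 on the plus strand at chr20:19265043-19265251, Cdc20 on the minus strand at chr5:137255800-137256049 and Pttg1 on the minus strand at chr10:28406411-28406576.
Ccnb1: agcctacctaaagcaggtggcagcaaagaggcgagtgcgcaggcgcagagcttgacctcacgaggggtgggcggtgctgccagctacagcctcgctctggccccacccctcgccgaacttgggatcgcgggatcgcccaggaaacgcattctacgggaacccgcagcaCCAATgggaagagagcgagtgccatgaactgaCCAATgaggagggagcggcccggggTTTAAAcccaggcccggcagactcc
Ccnb2: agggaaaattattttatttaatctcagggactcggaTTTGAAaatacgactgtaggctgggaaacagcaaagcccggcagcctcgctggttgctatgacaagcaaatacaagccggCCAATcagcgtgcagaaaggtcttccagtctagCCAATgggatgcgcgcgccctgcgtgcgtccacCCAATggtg
Cdk1: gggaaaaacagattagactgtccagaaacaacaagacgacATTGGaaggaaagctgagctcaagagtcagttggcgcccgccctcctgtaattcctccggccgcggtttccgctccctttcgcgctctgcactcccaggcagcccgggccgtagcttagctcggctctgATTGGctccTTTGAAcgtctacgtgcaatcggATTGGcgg
Cdc20: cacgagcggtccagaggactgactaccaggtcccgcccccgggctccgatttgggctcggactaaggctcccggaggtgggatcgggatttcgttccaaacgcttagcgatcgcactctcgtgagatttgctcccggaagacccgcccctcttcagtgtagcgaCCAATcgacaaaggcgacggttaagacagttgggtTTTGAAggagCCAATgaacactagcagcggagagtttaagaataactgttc
Pttg1: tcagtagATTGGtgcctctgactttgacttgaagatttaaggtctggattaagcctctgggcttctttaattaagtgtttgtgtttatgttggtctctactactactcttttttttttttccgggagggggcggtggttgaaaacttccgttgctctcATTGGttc

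In these windows of 250 bases, Ccnb2, Cdk1 and Pttg1 held 3 CCAAT matches each, and Ccnb1 and Cdc20 held 2 each. TTTGAA matched 2 times in Ccnb2 and Cdk1 and 1 time in Cdc20 and Pttg1; TTTAAA matched 1 time, in Ccnb1, at 25 to 20 bases before the start. The nearest pair in Cdc20 was TTTGAA at 51 to 46 bases and CCAAT at 41 to 37 bases before the start. No match overlapped a match to another motif. One TTTGAA match each of Ccnb2, Cdk1 and Pttg1, and 1 CCAAT match of Pttg1, fell within the gene span and are not printed. Over 33469 promoter windows of this length, 34.0% held CCAAT, 16.2% TTTGAA, 12.3% TTTAAA and 5.87% both CCAAT and TTTGAA. The window given for Ccna1 lies within its gene span and held none of these letters, and Ccnd2 is named only. A match is a description of letters and not a site of binding.

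The array median signal lay between 30.9 and 58.2, and the highest value belonged to replicate 3 of the spermatogonia plus early spermatocytes, which also had the highest ratio of the actin control's 3' to 5' signal (3.64, against 1.26 for the lowest array). The marker lists separated some preparations and not others. The summed signal of 5 measured round spermatid markers was 7135 to 7513 in round spermatids and 985 to 1807 in pachytene spermatocytes, and that of 6 Sertoli markers was 10609 to 15561 in Sertoli cells and 299 to 642 in the 2 later germ cell groups. The pachytene list (5 genes) did not separate the later germ cells, with 10210 to 15548 in pachytene spermatocytes and 11782 to 13500 in round spermatids, against 2023 to 2736 in the early germ cells. The early germ cell preparation was mixed. It had 2985 to 4161 for the Sertoli list, 6508 to 9982 for 7 Leydig markers and 2199 to 2886 for 6 macrophage and blood markers, whereas its germ cell list (5 genes) reached 3185 to 4051, against 2764 to 3772 in the Sertoli preparation. That germ cell list did not separate it from pachytene spermatocytes, at 2557 to 3586. It was 1899 to 2257 in round spermatids and 4310 to 6093 in stage IX-XI. The Sertoli preparation was mixed too, with 5730 to 7586 for the Leydig list, against 198 to 429 in the tubules. It had 2185 to 5288 for 5 myoid markers, against 340 to 695 in the tubules. For 4 endothelial markers it had 427 to 1300, against 34.7 to 144 in the tubules.

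Over the 10 stages, 9 of the 13 member probe sets changed, by the rule of an adjusted p under 0.05 in limma's F-test and at least 2-fold between the highest and lowest stage means, against 32.5% of all 22258 probe sets tested. All 13 were tested. The 9 include Ccna1 (1) and (2) and Cdc20 (1), (2) and (4), and probe sets of 1 gene are not independent. The members were also chosen with earlier results of these data known. Here and below, the shares of members and of all probe sets are thus not of like sets. The median log2 range over stages was 1.28 for the members and 0.89 for all tested probe sets. The stage profiles had different shapes. Ccna1 (1) and Ccnb1 (1) were highest in stage I and lowest in IX-XI. Ccnb2 was high from stage I to VI, and Cdk1 and Pttg1 were highest in XIII-XIV and I. Cdc20 (1) and (2) were lowest in II-III. The highest stage means were in VIII and IX-XI for Cdc20 (1) and in IX-XI and XII for Cdc20 (2). Ccnd2 showed no stage difference that passed the test. Its 1 probe set was dim, with stage means of 54.6 to 64.4 against a table median of 43.7, so a flat signal may in part be background. Throughout, fewer cells of a type and less RNA per cell cannot be told apart in tissue.

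**Figure D1:**
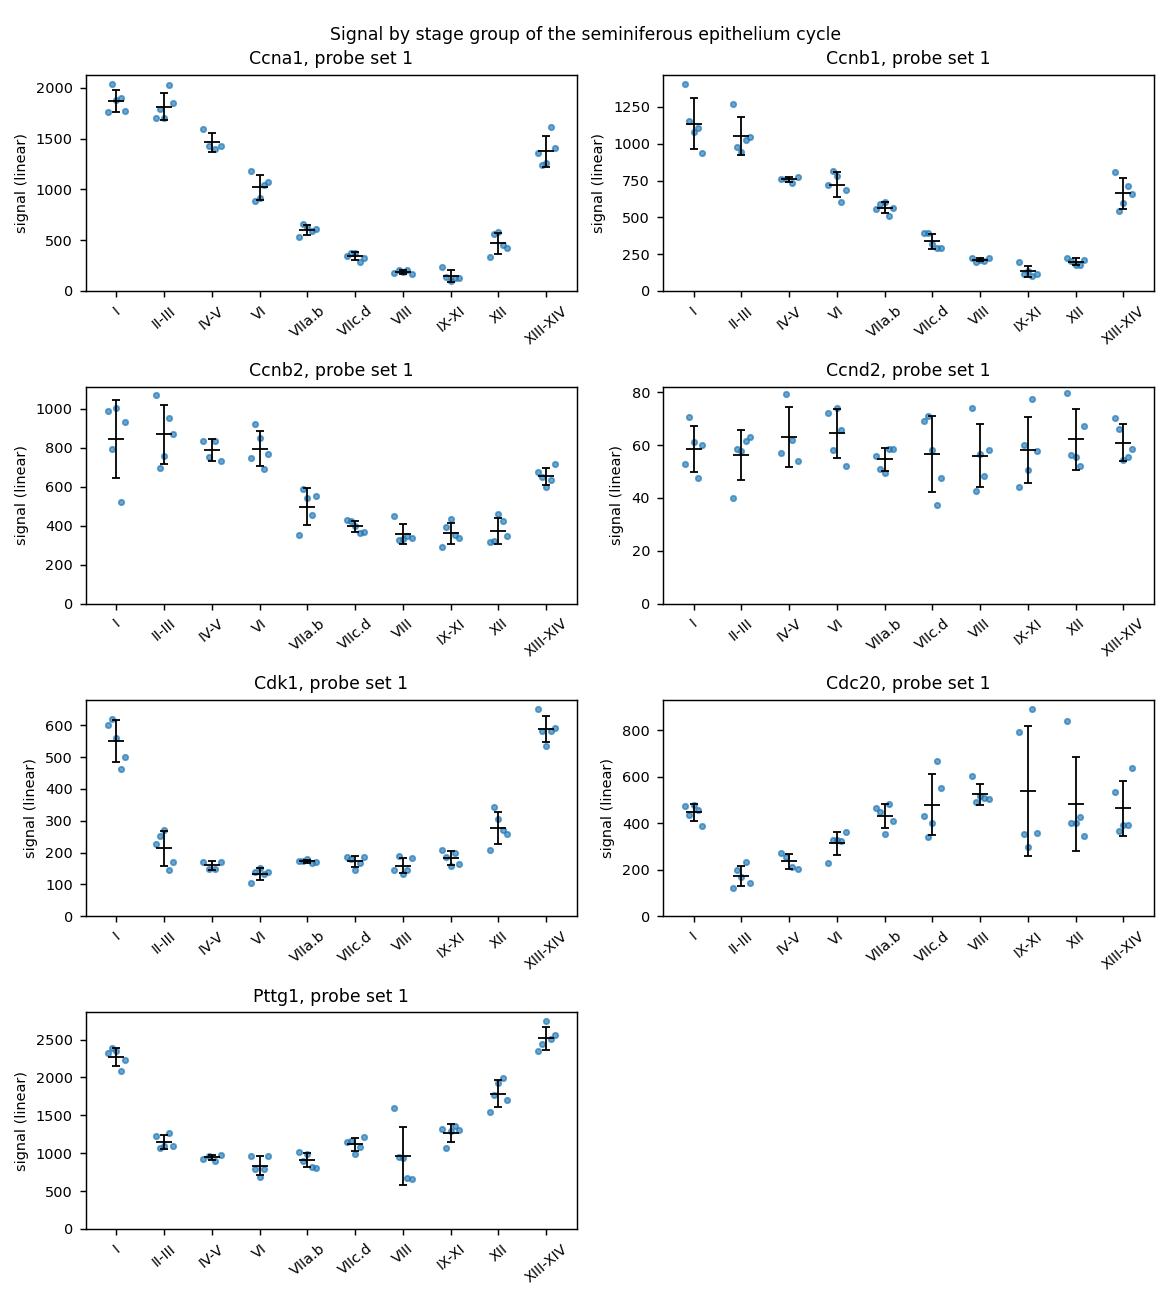
Signal (linear axis from 0) of the main probe set of each gene in the 10 stage groups; points are samples, black bars are the mean with its SD. Ccna1 and Ccnb1 fell from stage I to IX-XI and were higher again in XIII-XIV, Cdk1 and Pttg1 had their 2 highest means in XIII-XIV and I, with Pttg1 already at 1785 ± 177 in XII, and Ccnd2 lay between 37.3 and 79.8 in every tubule sample.

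Ccna1 (1) gave the widest range. Its signals were 1762, 2034, 1877, 1903 and 1776 in the 5 samples of stage I and 241, 141, 94.6, 132 and 130.2 in those of IX-XI. Every stage I sample lay above every IX-XI sample. The means were 1870.4 ± 110.2 and 148 ± 54.9, a 12.8-fold difference (limma F-test, adjusted p = 3.22e-32). In between the mean went down at each step, through 1815 ± 134 in II-III, 1462 ± 90.6 in IV-V, 1019.6 ± 121 in VI, 603 ± 48.9 in VIIa.b, 340.4 ± 39.2 in VIIc.d and 189 ± 18.7 in VIII. Neighbouring groups I and II-III overlapped, as did VIII and IX-XI. The return took 2 steps, with 332, 559.8, 577, 452 and 424 in stage XII and 1356, 1239, 1260.4, 1619 and 1405 in XIII-XIV, so that the samples of XII, XIII-XIV and I did not overlap. Ccna1 (2) was dim and changed less. It had 85.1, 71.98, 74.9, 80.5 and 53.1 in XIII-XIV and 19.5, 5.95, 25.8, 23.6 and 19.8 in VI, with no overlap, and ranged 3.41-fold (adjusted p = 1.53e-05). Both Ccna1 probe sets were high in XIII-XIV to II-III, but in IX-XI, where probe set 1 stood at its lowest, probe set 2 had a mean of 52.7 ± 14.2, above its 18.9 ± 7.72 in VI.

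Ccnb1 (1), for cyclin B1, followed a course like that of Ccna1 (1). The 5 samples of stage I had 1404, 1153, 1082, 1108 and 935 and those of IX-XI 194, 114, 134, 104 and 117, and the groups did not overlap. The range was 8.41-fold (adjusted p = 1.89e-30). Means passed through 758 ± 17.8 in IV-V, 565 ± 35.5 in VIIa.b and 212 ± 11.4 in VIII. Stage XII was still low, with 225, 204, 173, 175 and 211, and XIII-XIV was high, with 810.4, 541, 594, 715 and 656. Where Ccna1 (1) had already risen in stage XII, Ccnb1 (1) overlapped between IX-XI and XII (log2 0.59 ± 0.12, adjusted p = 4.28e-04, limma), a change that passed the adjusted p but not the fold. Ccnb1 (2) had a narrow range, from 113 ± 12.3 in II-III to 68.7 ± 14.2 in VIIc.d, which passed the adjusted p of the limma F-test (0.00184) but not the 2-fold rule (1.62-fold).

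Ccnb2, for cyclin B2, had a plateau followed by a low phase. The samples of stage II-III had 1070.4, 693, 754, 949.9 and 869 and those of VIII 451, 326, 333, 346 and 334, with no overlap. The range was 2.39-fold (adjusted p = 5.82e-16). The means of I, II-III, IV-V and VI lay between 787 ± 54.04 and 867 ± 151, and their samples overlapped. The mean was 497 ± 94.99 in VIIa.b, and VIIc.d to XII lay between 358 ± 52.7 and 396 ± 29.7. Stage XIII-XIV, with 673, 651, 597, 631 and 715, was above all samples of XII (log2 0.81 ± 0.14, adjusted p = 3.15e-05), short of 2-fold. Ccnd2, for cyclin D2, was at 64.4 ± 9.31 in its highest stage, VI, and 54.6 ± 4.29 in its lowest, VIIa.b. Samples of its highest and lowest stages overlapped, and the range on the log2 scale was 1.16-fold (adjusted p = 0.935).

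Cdk1 was high in the 2 groups that flank the end of the cycle. Its signals were 652, 581, 534, 581 and 591 in XIII-XIV and 600.3, 619.8, 561, 463 and 501 in stage I, and these overlapped each other. In VI they were 103, 137, 151, 134 and 138, below every sample of both. The range was 4.32-fold (adjusted p = 1.45e-22). From IV-V to IX-XI all means lay between 133 ± 17.6 and 184 ± 21.3. Stage XII, with 209, 342, 306, 269.8 and 258, lay just above the IX-XI samples (159 to 208) through its replicate 1, and stage II-III, with 228, 252, 272, 144 and 170.00, overlapped those of IV-V but not those of stage I.

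Pttg1, for securin, was high where Cdk1 was high, and its means began to go up before stage XII. It had 2342, 2448, 2749, 2501 and 2556 in XIII-XIV and 966, 788, 682, 785 and 960.3 in VI, with no overlap, a 3.02-fold range (adjusted p = 2.17e-18). Stage I was at 2273 ± 120.5 and II-III at 1149.6 ± 90.3, which do not overlap (log2 -0.98 ± 0.12, adjusted p = 2.43e-08), just short of 2-fold. Means went up in 3 successive steps from VIII, at 963 ± 382, to IX-XI, at 1265 ± 116, XII, at 1785 ± 177, and XIII-XIV, at 2519 ± 151. Each of these steps passed the adjusted p and none reached 2-fold. The wide SD in VIII came from replicate 1, at 1601, with the others between 663 and 947.

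Cdc20 is listed by 5 probe sets, which did not share 1 course. Cdc20 (1) had 605, 491, 519, 508 and 506 in VIII and 124, 201, 168, 234 and 143 in II-III, with no overlap, and a 3.03-fold range (adjusted p = 1.40e-08). Its samples spread widely late in the cycle, with 793, 355, 298, 893 and 359 in IX-XI. Cdc20 (2) was tighter, with 488, 549, 501, 486 and 429.6 in IX-XI against 173, 228, 216, 226 and 164 in II-III, and its 2.41-fold range also passed (adjusted p = 1.96e-15). Both were thus low in II-III, but from stage I to II-III Cdc20 (1) fell by log2 1.37 and Cdc20 (2) had log2 -0.52 ± 0.10, adjusted p = 6.31e-05. Cdc20 (4) was dim, from 29.5 ± 16.1 in I to 69.4 ± 15.4 in IX-XI, and changed 2.44-fold (adjusted p = 0.00275); without stage I replicate 2, at 4.55, its range was 0.98 on the log2 scale and below 2-fold, as it was with 32 added before the log (0.76). Cdc20 (3) ranged 1.92-fold, which became a call without stage VI replicate 5 (log2 1.03). Cdc20 (5) ranged 2.22-fold with an adjusted p of 0.171, which was 0.0466 without stage XIII-XIV replicate 4 (limma).

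**Figure D2:**
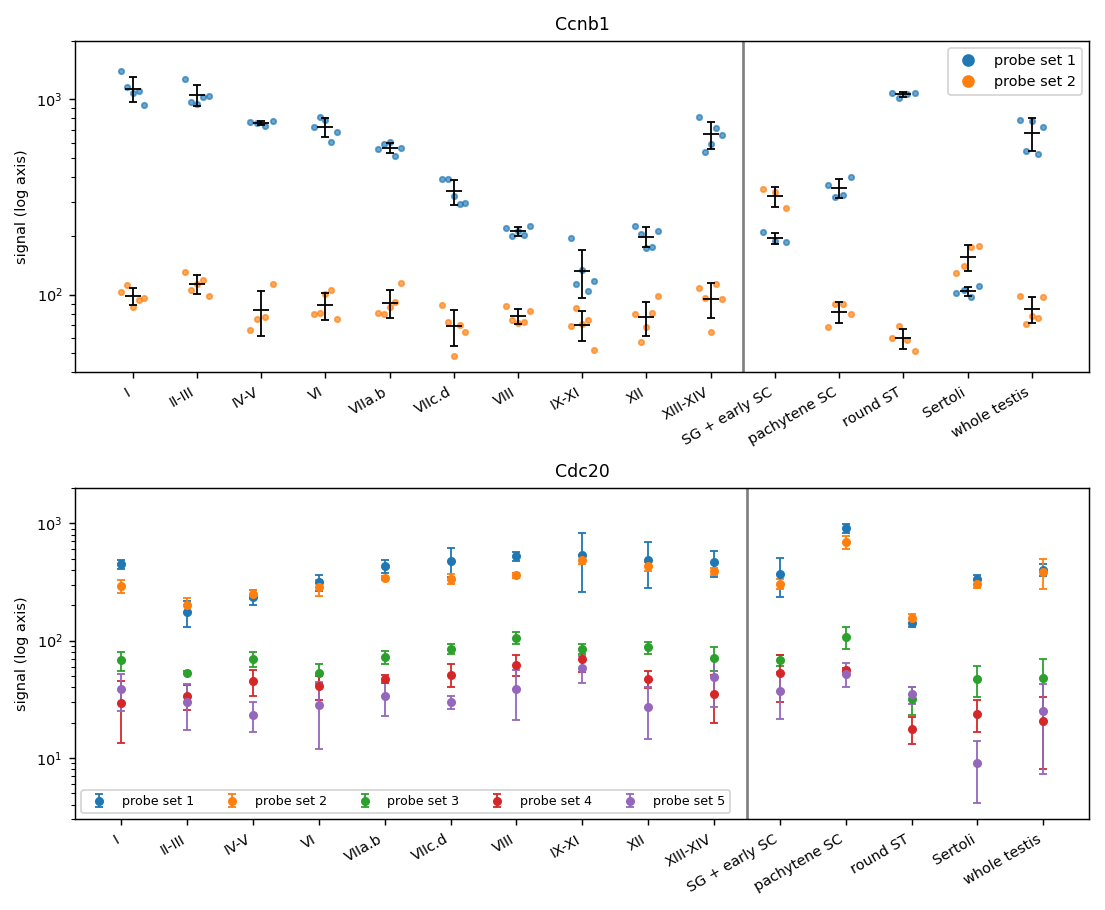
Signal (log axis) of the 2 Ccnb1 probe sets (points are samples, black bars mean and SD) and of the 5 Cdc20 probe sets (means with SD) in the stage groups, left of the grey line, and in isolated cells and whole testis, right of it; SG + early SC is spermatogonia plus early spermatocytes, SC spermatocytes and ST spermatids. Ccnb1 probe set 2 was highest in spermatogonia plus early spermatocytes, where probe set 1 was low, and Cdc20 probe sets 1 to 4 were higher in pachytene spermatocytes than in round spermatids.

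Between neighbouring stages, 6 of 130 member tests (13 probe sets over 10 steps) passed both thresholds. They belonged to 4 of the 13 probe sets, where 10.9% of all probe sets passed in at least 1 step. From I to II-III, Cdk1 (log2 -1.38 ± 0.13, adjusted p = 4.83e-12) and Cdc20 (1) (log2 -1.37 ± 0.22, adjusted p = 2.73e-06) fell, where 1.31% of all probe sets fell. From IX-XI to XII only Ccna1 (1) of the members rose (log2 1.67 ± 0.13, adjusted p = 4.16e-13), against 0.642% of all. From XII to XIII-XIV, Ccna1 (1) (log2 1.56 ± 0.13, adjusted p = 4.74e-12), Ccnb1 (1) (log2 1.71 ± 0.12, adjusted p = 8.77e-15) and Cdk1 (log2 1.09 ± 0.13, adjusted p = 1.64e-08) rose, against 0.368% of all. All these are limma contrasts. The Cdk1 step was at log2 0.99, below 2-fold, without stage XII replicate 1. The other 7 steps held 0 member calls, with 36 of 91 tests at an unadjusted p under 0.05 (14 higher and 22 lower). Some of these passed the adjusted p and missed the fold alone. Ccna1 (1) fell so at each step from IV-V to IX-XI (limma adjusted p of 1.60e-05 to 0.0273). Ccnb1 (1) fell so at each step from VIIa.b to IX-XI (1.16e-05 to 1.98e-04). Cdc20 (2) and Pttg1 rose so from VIII to IX-XI (7.64e-04 and 0.00596). For XIII-XIV to I, 1.40% of all probe sets were called in either direction. Round spermatid markers moved over the same stages. Their summed signal was 1015 to 1401 in XIII-XIV, 1725 to 2343 in I, 4371 to 6920 in II-III, 10226 to 10840 in VI and 1086 to 1482 in IX-XI, and the pachytene list was 14291 to 21299 in I and 13246 to 18555 in IX-XI; their part in the member profiles was not tested.

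The ratio between 2 members on the same array was compared between XIII-XIV and I, where the means of several members are close. Of 11 pairs, 4 differed (exact two-sided permutation test, 5 against 5 samples, Benjamini-Hochberg adjusted p = 0.0218; the smallest unadjusted p possible is 0.00794). The log2 ratio of Ccnb1 (1) to Cdk1 was 0.88 lower in XIII-XIV, at 0.16 ± 0.17 against 1.04 ± 0.18 in I (SD, n = 5 each). That of Ccna1 (1) to Cdk1 was 0.55 lower, at 1.22 ± 0.17 against 1.77 ± 0.18. On their own from XIII-XIV to I, Cdk1 had log2 -0.10 ± 0.13, adjusted p = 0.781 and Ccnb1 (1) log2 0.77 ± 0.12, adjusted p = 3.65e-06 (limma). Ccna1 (1) had log2 0.45 ± 0.13, adjusted p = 0.0258 (limma), and none of these changes was 2-fold. The means of Ccnb1 (1) and Ccna1 (1) were thus not level between these groups. Within genes, Ccnb1 (1) to (2) was 0.71 lower and Ccna1 (1) to (2) 0.57 lower in XIII-XIV, at an exact unadjusted p = 0.00794 for each; with quantile normalization the Ccna1 pair had an adjusted p of 0.0655 by the same exact test. The ratio of Ccna1 (1) to Ccnb1 (1) was 0.33 higher in XIII-XIV with an adjusted p of 0.0873 (exact permutation test), which was 0.0349 without XIII-XIV replicate 1. The pair of Ccnb1 (1) and Ccnb2 (-0.44, adjusted p = 0.131 by the exact test), the 4 Cdc20 pairs and Cdc20 (1) with Pttg1 (-0.12) did not pass.

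In isolated cells, Ccna1 (1) separated the early germ cells from the later ones by the widest margin. Its signals were 5.87, 6.56 and 10.9 in spermatogonia plus early spermatocytes, near the 10th percentile of the table (5.11), 758, 683, 713 and 927 in pachytene spermatocytes and 1581, 1539, 1683 and 1596 in round spermatids. None of these groups overlapped. The rise to pachytene was 60.7-fold (log2 5.92 ± 0.32, adjusted p = 9.63e-12, limma) and that to round spermatids 2.08-fold (log2 1.06 ± 0.30, adjusted p = 0.00643). Without detection calls a signal of 5.87 was not shown to lie above background, and the fold understates the ratio of signals since 5.11 is added to each.

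From spermatogonia plus early spermatocytes to pachytene spermatocytes, 5 of 13 member probe sets rose and 1 fell, against 18.5% of all 20253 probe sets that rose and 28.6% that fell. Pttg1 rose 3.07-fold, from 537, 621 and 527 to 1791, 1485, 1546 and 2174 (log2 1.62 ± 0.13, adjusted p = 3.92e-09, limma), with no overlap. Cdc20 (1) rose 2.52-fold (log2 1.33 ± 0.16, adjusted p = 7.64e-07) and Cdc20 (2) 2.23-fold, from 331, 311 and 274 to 687, 611, 649.98 and 807. Ccna1 (2) rose 2.15-fold, which did not pass without spermatogonia plus early spermatocytes replicate 1 (limma adjusted p = 0.0534) or, at log2 0.62, with 32 added before the log. The fall was that of Ccnb1 (2), from 346, 336 and 277 to 68.3, 89.9, 89.1 and 79.4 (log2 -1.91 ± 0.15, adjusted p = 2.62e-09). Ccnb1 (1) on the same arrays had 209, 188 and 186 and 366, 317, 324 and 402, a change of log2 0.84 ± 0.10, adjusted p = 7.71e-07 that was short of 2-fold. The 2 Ccnb1 probe sets thus had opposite signs in this comparison; the difference between them was not tested. Cdk1, with 254, 293 and 229.5 against 509, 423, 429 and 531, was 1.81-fold higher and Ccnb2 1.27-fold higher in pachytene spermatocytes, both below the fold rule. The ages differ, and the somatic and blood markers above are far lower in the pachytene cells, at 227 to 436 for the Leydig list; their part in these changes was not tested.

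From pachytene spermatocytes to round spermatids, the first probe sets of Ccna1 and Ccnb1 rose, while Cdk1 and 4 Cdc20 probe sets fell. Of 13 probe sets 2 rose, where 8.90% of all rose, and 5 fell, where 13.1% of all fell. Ccnb1 (1) rose 3.00-fold, from 366, 317, 324 and 402 to 1078, 1019, 1061 and 1086 (log2 1.58 ± 0.10, adjusted p = 1.97e-10, limma), with Ccna1 (1) as above, and Ccnb2 was 1.70-fold higher, at 973, 805, 907 and 888 against 564, 483, 466 and 582, with no overlap and below 2-fold. The other 3 cyclin probe sets did not pass both thresholds, with log2 0.37 ± 0.31 for Ccna1 (2), -0.42 ± 0.14 for Ccnb1 (2), which missed the fold alone (limma adjusted p of 0.0225), and -0.06 ± 0.23 for Ccnd2. Cdk1 fell 2.15-fold, from the pachytene values above to 239, 201, 222 and 203 (log2 -1.11 ± 0.15, adjusted p = 3.87e-06). Cdc20 fell by 4 of its 5 probe sets, with 131, 157, 135 and 143 for probe set 1 (log2 -2.64 ± 0.15, adjusted p = 1.15e-10) and 170.01, 136, 159.9 and 152 for probe set 2 (log2 -2.12 ± 0.11, adjusted p = 2.88e-11). Cdc20 (3) had log2 -1.63 ± 0.22, adjusted p = 7.21e-06, Cdc20 (4) log2 -1.45 ± 0.27, adjusted p = 2.24e-04 and Cdc20 (5) log2 -0.50 ± 0.28, adjusted p = 0.173, the last of these not passing; with 32 added before the log Cdc20 (4) was at -0.83, below 2-fold. Pttg1, at 1069, 961, 952 and 1053, was lower by log2 0.78 and short of 2-fold. With quantile normalization Ccna1 (1) was at log2 0.99 and Cdk1 at -0.93, both then below 2-fold, and Pttg1 passed at -1.18. The 3' to 5' ratio of the GAPDH control was 1.75 to 2.44 in round spermatids and 1.07 to 1.51 in pachytene spermatocytes; its part was not tested.

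**Figure D3:**
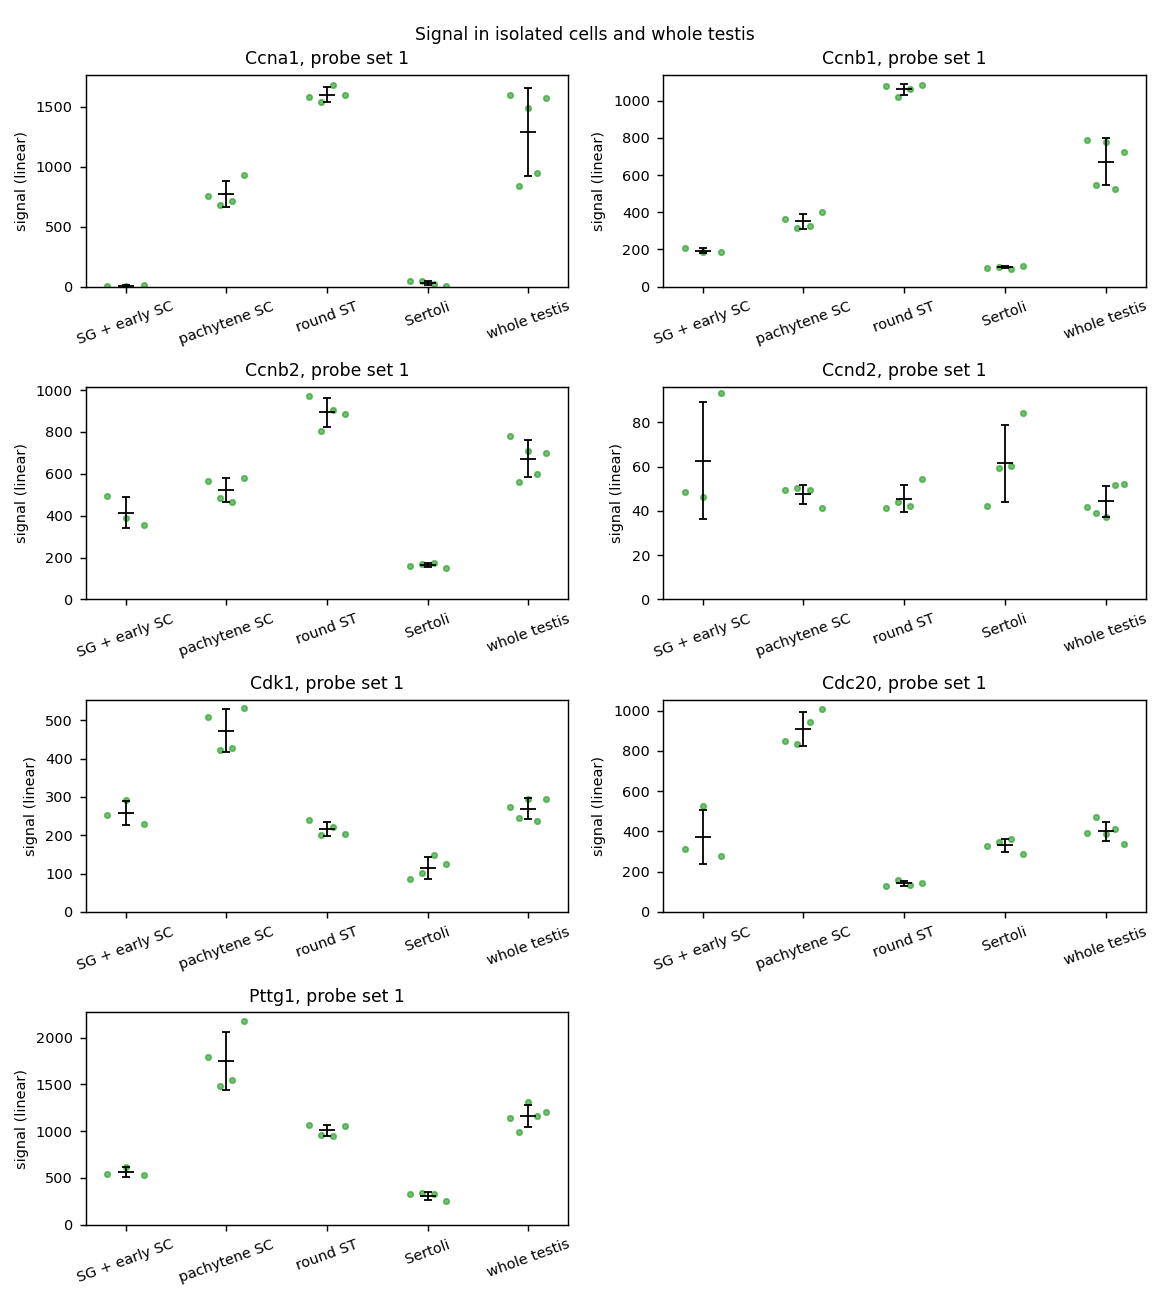
Signal (linear axis from 0) of the main probe set of each gene in isolated cells and whole testis; points are samples, black bars mean and SD, and SG + early SC is spermatogonia plus early spermatocytes, SC spermatocytes and ST spermatids. Ccna1, Ccnb1 and Ccnb2 were highest in round spermatids among the isolated cells, whereas Cdk1, Cdc20 and Pttg1 were highest in pachytene spermatocytes.

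Sertoli cells are the somatic cells of the tubule and do not divide in the adult. In their preparation, 7 of 13 probe sets were lower than the mean of the 3 germ cell groups (limma), where 29.7% of all were lower. The number higher was 0, where 24.1% of all were higher. Ccnb1 (2) was higher by log2 0.39 ± 0.12 (limma adjusted p = 0.00543), short of 2-fold, with overlapping samples. The preparation also held the Leydig, myoid and endothelial markers given above, and their part was not tested. Ccnb1 (1) had 102, 105, 97.2 and 111 (log2 -1.96 ± 0.08, adjusted p = 2.86e-13), below every germ cell sample. Ccnb2 had 158, 170.4, 175 and 151 (log2 -1.79 ± 0.09, adjusted p = 6.65e-12), Pttg1 327, 337, 326 and 248 (log2 -1.68 ± 0.10, adjusted p = 5.97e-11) and Cdk1 84.8, 101, 148 and 125 (log2 -1.36 ± 0.12, adjusted p = 8.01e-09). These 3 were also below every germ cell sample. Ccna1 (1) and (2) and Cdc20 (5) were the other 3 calls; with 32 added before the log Ccna1 (2) was at log2 -0.91 and Cdc20 (5) at -0.83, both below 2-fold. Cdc20 (1), at 329, 347, 363 and 289, and Cdc20 (2), at 288, 335, 316 and 286, overlapped the values of spermatogonia plus early spermatocytes and lay between the pachytene and round spermatid values. Ccnd2 had 42.01, 59.4, 60.2 and 84.2 and did not pass (adjusted p = 0.270 in limma).

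Against Sertoli cells alone, 5 probe sets were higher in spermatogonia plus early spermatocytes (24.9% of all) and 1 was lower (12.0% of all). Ccnb2 was 2.47-fold higher, with 496, 391 and 358 (log2 1.30 ± 0.12, adjusted p = 1.03e-07, limma), and this was the 1 call left of 6 when 32 was added before the log. Cdk1 was 2.23-fold higher, Cdc20 (5) 3.03-fold, Ccna1 (2) 2.10-fold and Ccnb1 (2) 2.03-fold. Ccnb1 (2) was below 2-fold without Sertoli replicate 1 or 2 or early germ cell replicate 1 or 2 (log2 0.94 to 0.98). Ccna1 (2) was below it without Sertoli replicate 2 (0.74) or early germ cell replicate 3 (0.75), and Cdc20 (4) passed without that replicate (1.33) and without Sertoli replicate 2 (1.01) or 3 (1.08), and with 1 as the constant (1.07). With quantile normalization Ccna1 (2), at log2 0.38 with a limma adjusted p of 0.345, and Cdc20 (5), at 0.93, did not pass, and Pttg1 did (1.45, against 0.86 without it). The lower one was Ccna1 (1), at 44.6, 43.9, 25.5 and 7.68 in Sertoli cells against the 5.87 to 10.9 above. Elongating spermatid markers (6 genes) summed to 1462 to 6295 in the Sertoli preparation and 57.1 to 102 in the early germ cells; their part was not tested. Both preparations carried the Leydig markers given above.

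**Figure D4:**
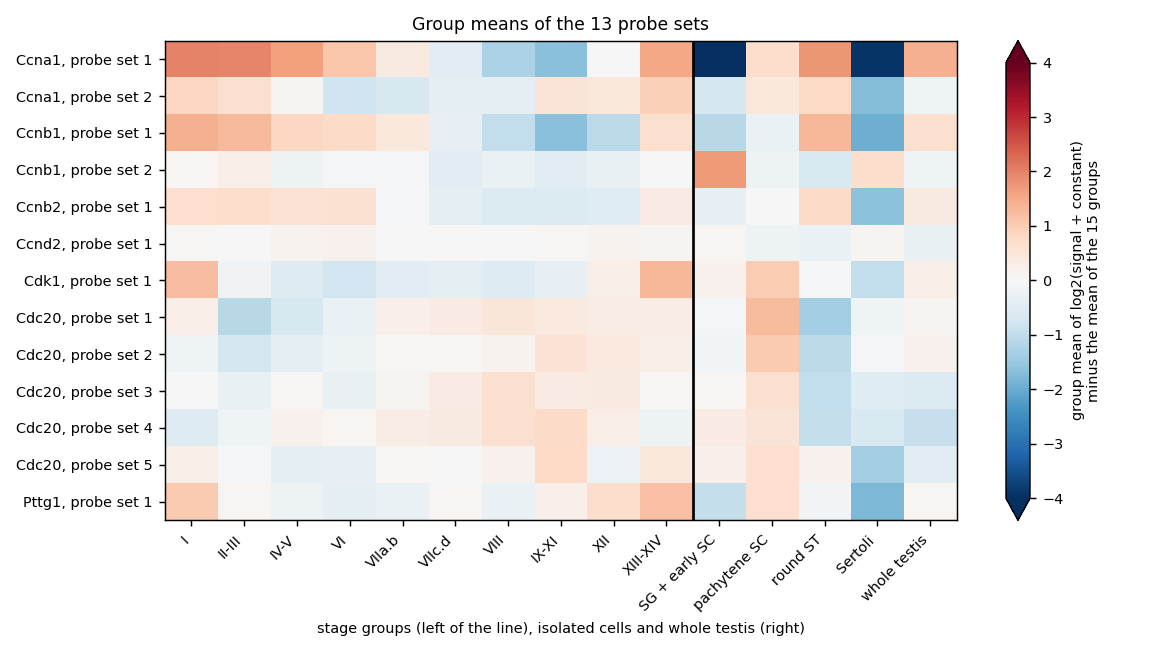
Mean of log2(signal + 5.11) of each probe set in each group, minus the mean of its 15 group means; red is above and blue below that mean, values past the ends of the colour scale take the end colour, and the black line divides stage groups from isolated cells and whole testis. Rows for Ccna1, Ccnb1 and Ccnb2 were red in stages I to VI and in round spermatids, except Ccna1 probe set 2 and Ccnb1 probe set 2, and the row for Ccnd2 was pale throughout.

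In whole testis, 1 of 13 member probe sets passed both thresholds against the mean of the 10 stage means. Ccna1 (1), Ccnb1 (1), Ccnb2 and Cdk1 (higher) and Ccnd2 and Cdc20 (3) (lower) passed the adjusted p alone. Their limma adjusted p lay between 9.93e-09 and 0.0326, and they were short of 2-fold. Cdc20 (4) was 2.14-fold lower (log2 -1.10 ± 0.23, adjusted p = 2.55e-04, limma), where 1.20% of all 22504 probe sets were lower and 2.31% higher. Its signals were 32.2, 24.99, 4.19, 30.7 and 10.6, and it did not pass without replicate 3 (log2 -0.78) or replicate 5 (log2 -0.97). Ccna1 (1) had 1599, 838, 1489, 946 and 1568 and Ccnb1 (1) 789, 545, 779, 525 and 726. Replicates 2 and 4 were the low ones in both, and in Cdc20 (2), at 486, 275, 459.9, 253 and 445. Ccna1 (1) was 1.85-fold above the mean of the stage means on the log2 scale and passed 2-fold without replicate 2 (log2 1.03). Its linear means were closer, at 1288 in whole testis and 918 over the tubule samples. A mean of logs lies below the log of the mean where stages differ widely, which raises this fold. Cdk1, at 275, 246, 295, 238 and 296, and Pttg1, at 1139, 989, 1317, 1163 and 1208, lay between the high and low stage groups.

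Ranked over all 15 groups, Ccna1 (1) was highest in stage I, then II-III, round spermatids, IV-V and XIII-XIV, and each of these overlapped with the next except II-III with round spermatids. Ccnb1 (1) was highest in stage I, then round spermatids and II-III, each overlapping with the next. Ccnb2 was highest in round spermatids, at 893 ± 69.2, which overlapped with II-III. Cdk1 was highest in XIII-XIV, then I and pachytene spermatocytes, at 473 ± 55.3, which overlapped with stage I. Pttg1 had XIII-XIV and I ahead of XII and pachytene spermatocytes, and the samples of XIII-XIV and I overlapped while those of I and XII did not; XII overlapped with pachytene spermatocytes. Cdc20 (1) and (2) were highest in pachytene spermatocytes, at 909 ± 82.8 and 689 ± 84.7; the first overlapped with stage IX-XI, its next group, and the second did not.

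Of 61 other genes of the pathway, 55 were measured and 51 tested over the stages, and 28 changed by the same rule (54.9%, against 32.5% of all probe sets). Each pathway gene is given by its brightest probe set, and the lists were chosen with earlier results of these data known. Here and below, the shares of pathway genes and of all probe sets are thus not of like sets. Of the other cyclins, 6 of 8 changed. Ccne2, for an S-phase cyclin, was highest in IX-XI at 337 ± 70.2 and lowest in I (5.32-fold), and Ccne1 was highest in VIIc.d (3.84-fold), so neither followed the B-type cyclins. Ccnk, for a cyclin of transcription, was highest in I (5.03-fold). Of the kinases and activators, 5 of 13 changed. Cks2, for a small subunit that binds Cdk1, was highest in IX-XI at 1839.5 ± 224 and lowest in II-III (6.23-fold), Cdk2 was highest in XII (4.66-fold) and Cdk7, for a kinase that activates other Cdks, in I (3.16-fold). Of the inhibitors and pocket proteins 6 of 10 changed, led by Rbl2 (11.1-fold, highest in IV-V), Cdkn2b (7.71-fold, VIIc.d) and Cdkn1c (4.28-fold, VIII).

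Of the anaphase-promoting complex and its partners, 11 of 20 changed over the stages. Ube2c, for the ubiquitin-conjugating enzyme that works with the complex, was highest in I at 918 ± 79.9 and lowest in IX-XI at 193 ± 36.2 (SD, n = 5), a 4.71-fold range with the same peak and low as Ccnb1 (1). Anapc10 was highest in VIIc.d (8.06-fold) and Cdc26 in II-III (4.36-fold), both subunits of the complex. In isolated cells, where 53 pathway genes were tested, 13 rose (24.5%, against 18.5% of all probe sets) and 16 fell (30.2%, against 28.6%) from spermatogonia plus early spermatocytes to pachytene spermatocytes. Espl1, for separase, rose 4.68-fold (log2 2.23, adjusted p = 1.02e-10) and Cdc27 3.83-fold, while Anapc4 fell 3.85-fold and Pttg1ip 3.43-fold (limma). Ccnk rose 11.2-fold, and Ccna2, the A-type cyclin of dividing somatic cells and spermatogonia, fell 10.3-fold, from 186 ± 33.7 to 14.05 ± 6.49 (SD, n = 3 and 4), opposite in sign to Ccna1. Ccnd3 fell 7.44-fold. Hspa2, a chaperone needed for Cdk1 to bind cyclin B1 in spermatocytes and one of the pachytene markers above, rose 4.91-fold and Pkmyt1, for a kinase that inhibits Cdk1, 2.73-fold, while Cdc25b, for a phosphatase that activates it, fell 5.63-fold and Cdk4 3.96-fold. Cdkn2b (5.93-fold) and Cdkn2c (3.36-fold) rose, and Rbl2 (10.01-fold) and Cdkn1c (8.48-fold) fell. As given above, the early germ cell preparation was mixed, with somatic and blood markers, and came from younger rats. The part of these differences in the pathway changes was not tested.

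From pachytene spermatocytes to round spermatids, 3 of the 53 pathway genes rose (5.66%, against 8.90% of all probe sets) and 9 fell (17.0%, against 13.1%), shares near those of all probe sets. Ube2c rose 2.45-fold (log2 1.29, adjusted p = 9.87e-08, limma), the direction of Ccnb1 (1), and Rbl2 (5.97-fold) and Cdkn1c (2.21-fold) also rose. Among those that fell, as Cdc20 and Cdk1 did, were Cks2 (12.3-fold), Ccne2 (11.0-fold), Anapc15 (8.65-fold), Cdk2 (7.57-fold), Rbl1 (3.47-fold), Anapc16 (2.51-fold) and Ccnh (2.07-fold).

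The genes whose means over the 15 groups were most like a member's were named by Pearson's r, as a description over group means that share arrays and scaling. For Ccna1 they were Mageb10 (0.985), Rfx8 (0.985) and Slc39a3 (0.981), for Ccnb1 Slc26a5 (0.968), Bcas1 (0.958) and Spcs2 (0.955), and for Ccnb2 Slc26a5 again (0.955), Pxylp1 (0.945) and Tpst1 (0.942). For Cdk1 they were Psph (0.928), Stil (0.927) and Dlgap5 (0.915). For Cdc20 they were Lin52 (0.939), Pcgf6 (0.929) and Socs7 (0.929), and for Pttg1 Rfng (0.968), Wdr95 (0.958) and Cdkn2c (0.954). Ccnd2, with the flattest profile, had the lowest values, for U2af2 (0.835), Ppp2r3a (0.779) and Cdh3 (0.776).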

How the data were processed

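The 69 columns were signal intensities on a linear scale, deposited by the authors, made with MAS5 per the submitters' processing notes, which give no version or detection calls. The authors had scaled each array, since the mean without the top and bottom 2% was between 99.9926 and 99.993 in every array. From 31099 probe sets, 57 controls were removed; 20826 had 1 symbol, 436 several and 9780 were not listed by the platform's annotation; symbols were brought up to date through RefSeq.

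Values were analysed as log2(signal + 5.11), the constant being the table's 10th percentile, with limma 3.58.1 in R 4.3.3 (variance trend, two-sided) and tables read by data.table (version 1.17.8). Ratios were tested in Python 3.11.15 with numpy 2.4.6, by going through every split of the samples. The trimmed means of the arrays were taken with scipy 1.17.1. Probe sets above 43.7, the table median, in at least 3 samples were tested, with Benjamini-Hochberg adjustment over all of them within a contrast. A change counted at an adjusted p under 0.05 and 2-fold. Folds on this scale understate those of dim probe sets. Fits were on the 49 tubule samples, the 15 isolated cell samples, and tubules with whole testis. The scripts were tested on simulated data. Members, pathway genes and marker lists were chosen with earlier results of these data known. Pathway genes, each by its brightest probe set, were named for the 3 largest called stage ranges of a list and the 2 largest called changes in each direction of the pachytene and round spermatid comparisons. The 3 genes most like each member were named. Alternatives were a constant of 1 or 32, quantile normalization, no filter, no variance trend, the replicate number as a block, and leaving out samples.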

Additional observations from a re-analysis of the deposited data

Results flagged for a closer look

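In groups of 4 or 5 samples, a sample was singled out when its gap to the nearest other sample, divided by the range of the group, passed Dixon's critical value. Of 182 groups of values over the 13 probe sets, 11 were singled out; chance gives about 1 in 20. Ccna1 (1) had 1597 in stage IV-V replicate 2, with the others at 1399 to 1429. Ccnb2 had 451 in stage VIII replicate 1, with the others at 326 to 346. Ccnd2 had 39.9 in stage II-III replicate 1, against 57.8 to 63.2, and 41.1 in pachytene spermatocyte replicate 4, against 49.4 to 50.2.

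Cdc20 (1) was singled out 3 times, each in replicate 1: it had 229 in stage VI, below 324 to 362, 605 in stage VIII, above 491 to 519, and 842 in stage XII, above 345 to 427. Cdc20 (3) had 99.97 in stage XIII-XIV replicate 5, above 58.8 to 70.1, and Cdc20 (4) had 96.3 in stage IX-XI replicate 3, above 59.5 to 67.3. Pttg1 had 1063 in stage IX-XI replicate 2, below 1289 to 1355, and 248 in Sertoli cell replicate 4, below 326 to 337.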

How the results depend on the processing

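Over 81 alternative settings, 2507 values were recomputed for 95 results; 2444 kept their direction and their side of the thresholds, 10 gained a call, 27 lost one and 26 changed sign. With 32 added before the log, 1 probe set was called between early germ cells and Sertoli cells in place of 6, and 0 in whole testis in place of 1 (limma; unadjusted, 7 of 13 at p under 0.05 in the reported fit). Leaving out 1 sample moved the count of calls to 0 to 2 in whole testis, 8 to 10 over the stages, 5 to 7 in the neighbouring steps, 5 to 6 for pachytene spermatocytes, 5 to 7 for early germ cells against Sertoli cells and 4 to 5 for the ratios; the counts for round spermatids and Sertoli cells stayed at 7.

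Every change of sign was in a difference that had not passed both thresholds. With 32 added, Ccnd2 in early germ cells against Sertoli cells had log2 0.00194. With quantile normalization Ccnd2 had 0.040 in pachytene and 0.000234 in round spermatids, Ccnb1 (2) -0.0335 in Sertoli cells and 0.0054 in whole testis, and Cdc20 (2) 0.23 in early germ cells against Sertoli cells. Leaving out samples gave log2 ranges for early germ cells against Sertoli cells of -0.067 to 0.068 for Cdc20 (2), -0.31 to 0.16 for Ccnd2 and -0.17 to 0.28 for Cdc20 (1). The range was -0.21 to 0.41 for Cdc20 (4) in pachytene spermatocytes, and in whole testis -0.071 to 0.039 for Ccnb1 (2) and -0.46 to 0.016 for Ccna1 (2). For the ratios of Cdc20 (1) it was -0.15 to 0.053 with (3), -0.48 to 0.041 with (5) and -0.65 to 0.13 with (4). The causes were not tested.

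The labels do not say that a replicate number marks a shared batch, so the reported fits had no block. Of 216 same-numbered pairs of tubule samples, 41 deviated together at a correlation over 0.1 (range -0.10 to 0.23). No such count was made for different numbers. The mean correlation was 0.057 for the same number and -0.014 for different numbers, and 36 of 49 samples correlated best with their own number, a hint of pairing from the data and not from the design. With the replicate number as a block the counts stayed at 9, 6, 6, 7, 7, 6 and 1, and Ccnd2 and Cdc20 (2) in early germ cells against Sertoli cells changed sign, to 0.053 and 0.00674. The exact tests of ratios treated the samples as unpaired and were not run with a block. The number of arrays, 3 to 5 a group, limits the precision, and with no detection calls a dim signal may be background.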
